A study of Caenorhabditis elegans with 2 samples.

Results

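Peaks of GFP-tagged F57C9.4 were examined at 6 genes of Caenorhabditis elegans, which are mdt-26, cbp-1, set-16, set-21, prmt-5 and tasp-1. They encode coactivators, proteins of methyltransferase families and, for tasp-1, a protease. The 6 genes were selected on these same peak lists, because each had a peak, and are 6 of 348 protein-coding genes with an IDR interval and of 19973 protein-coding genes on the nuclear chromosomes. Their ranks and signal values are therefore a description, with no test. A gene was credited with an interval when the interval's summit, its position of highest signal, lay within 1000 bp of an annotated transcript start or inside the gene. The signal value is the one that the authors' peak caller assigned to each interval. Its unit is not stated, so it served only to order the intervals of one list and to give their heights.

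The study holds chromatin immunoprecipitation followed by sequencing (ChIP-seq) from whole animals of strain OP550, genotype unc-119(tm4063) III; wgIs550. This is 1 transgenic line, in which F57C9.4 carries GFP and FLAG at its C terminus. The promoter that drives the transgene and the share of F57C9.4 protein that is tagged are not stated by the labels. Both libraries, biological replicates 5 and 6, came from mixed-sex young adults collected 66 h after synchronisation as starved first-stage larvae, and an antibody against GFP was used on sonicated chromatin. There is no second condition, and a control that the labels name only as possible was not analysed here. On build ce11, the replicate 5, replicate 6 and pooled lists hold 30000 intervals each. The IDR list, which the authors derived from the replicate and pooled lists with an irreproducibility threshold, holds 360. These 360 are the strongest 360 of the pooled list, and 356 of them were found in both replicate lists. The lists differ in scale, with a median signal value of 25.8 for the pooled intervals, 18.5 for replicate 5 and 12.3 for replicate 6, so levels were set side by side across lists only as ranks or as multiples of the list's own median. Read depth is unknown, and whole animals mix many cell types, so an interval does not tell in which cells the protein was bound.

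Coactivators link DNA-bound transcription factors to RNA polymerase II. Mediator, the complex that MDT-26 belongs to, bridges activators and the polymerase. CBP-1, the worm member of the CBP/p300 family, acetylates histones. SET-domain proteins transfer methyl groups to lysines, and SET-16 is the worm relative of the mammalian MLL3 and MLL4 methyltransferases. PRMT-5 methylates arginines. TASP-1 is the worm taspase, a protease which in mammals cleaves MLL proteins.

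The sequences around the IDR summits are shown because their positions relative to the genes, and the short runs of letters they share, are described with the results. They were read from the RefSeq WBcel235 genome, the same assembly as ce11, on the plus strand, which is the coding strand of all 6 genes. Each runs 100 bases to either side of the summit, without any untranslated exon sequence. Capitals mark matches, on either strand, to the 6-base motifs and 8-base runs described further on, and matches in the parts left out are not shown. The 2 mdt-26 stretches belong to the strongest and the second of its 3 intervals.
mdt-26 second coding exon with parts of both flanking introns, II:5661686-5661886: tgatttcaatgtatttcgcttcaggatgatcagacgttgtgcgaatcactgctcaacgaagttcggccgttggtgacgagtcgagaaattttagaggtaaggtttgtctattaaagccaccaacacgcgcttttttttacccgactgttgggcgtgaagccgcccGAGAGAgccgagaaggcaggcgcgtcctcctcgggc
mdt-26 intron, II:5661885-5662085: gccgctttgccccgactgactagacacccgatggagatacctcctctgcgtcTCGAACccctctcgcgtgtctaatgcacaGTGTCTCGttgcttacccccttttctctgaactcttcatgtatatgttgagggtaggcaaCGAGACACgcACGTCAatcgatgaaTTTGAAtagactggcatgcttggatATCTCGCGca
cbp-1 upstream, III:9765490-9765690: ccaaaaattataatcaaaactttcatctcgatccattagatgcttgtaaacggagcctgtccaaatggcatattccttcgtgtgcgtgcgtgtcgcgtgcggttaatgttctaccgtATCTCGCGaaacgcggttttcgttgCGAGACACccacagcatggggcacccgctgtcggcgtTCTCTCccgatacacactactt
set-16 upstream, III:13643660-13643860: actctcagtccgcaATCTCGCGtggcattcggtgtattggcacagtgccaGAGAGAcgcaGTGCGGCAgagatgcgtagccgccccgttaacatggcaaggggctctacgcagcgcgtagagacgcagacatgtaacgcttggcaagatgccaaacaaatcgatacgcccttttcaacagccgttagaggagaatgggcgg
set-21 upstream, IV:4390591-4390756: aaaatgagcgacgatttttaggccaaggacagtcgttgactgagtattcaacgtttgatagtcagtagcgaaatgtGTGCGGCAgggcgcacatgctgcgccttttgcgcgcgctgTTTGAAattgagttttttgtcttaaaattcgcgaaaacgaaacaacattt
prmt-5 first coding exon, III:5230579-5230697: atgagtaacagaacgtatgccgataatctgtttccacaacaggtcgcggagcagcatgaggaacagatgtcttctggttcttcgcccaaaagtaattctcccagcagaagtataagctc
tasp-1 upstream, III:10759157-10759306: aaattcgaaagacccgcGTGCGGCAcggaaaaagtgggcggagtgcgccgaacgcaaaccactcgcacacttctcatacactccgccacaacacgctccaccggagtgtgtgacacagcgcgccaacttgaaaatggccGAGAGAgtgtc

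All 6 genes had an IDR interval, with 8 intervals among them. In the whole annotation 1.74% of protein-coding genes had one. The strongest interval of each gene had a signal value between 87.5 and 191 in the pooled list (median 141). The median over all 360 IDR intervals was 81.5, but those were not limited to the strongest of each gene. By rank among the 360, 4 of the 6 genes had an interval within the top 25 and 5 within the top 50. The shares of all genes at these 2 limits were not computed, so the counts do not set the 6 apart. Distances of summits are measured from the gene's annotated transcript start nearest to the summit, which need not be the first base of the gene. The strongest summit lay upstream of the start in 4 genes and downstream of it in 2, at a distance of 27 to 919 bp (median 172). The map of pooled signal value against distance from the start shows these positions, with the starts of neighbouring genes.

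**Figure D1:**
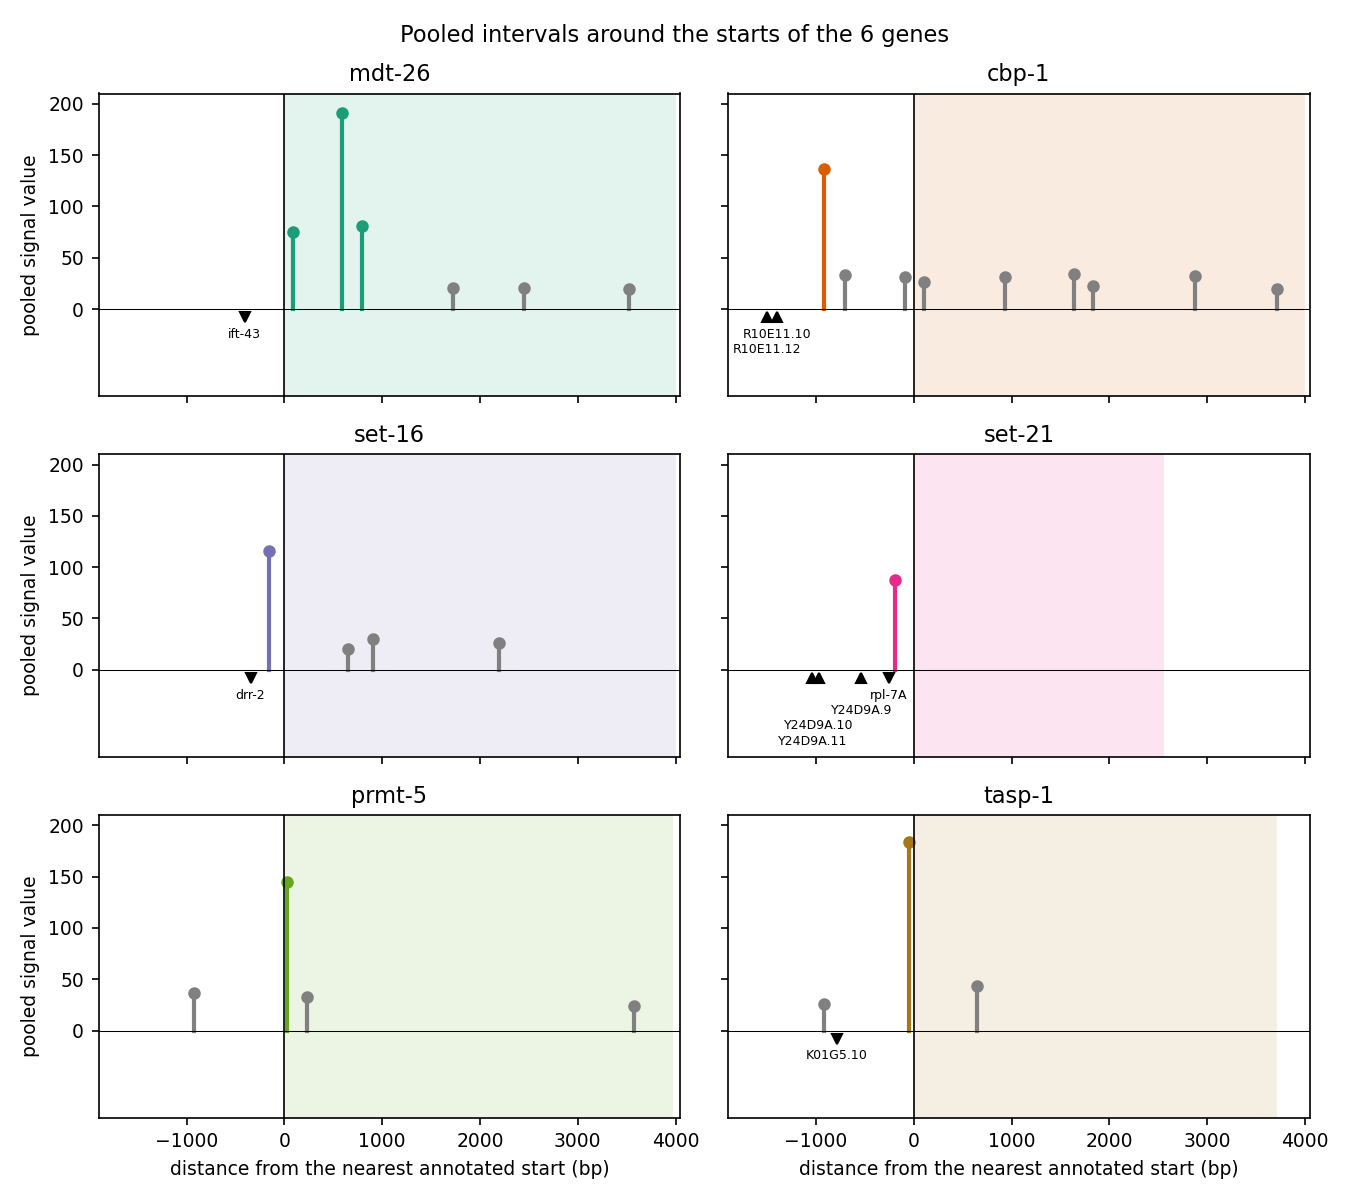
Pooled signal value (vertical axis) of each pooled interval against the distance of its summit from the nearest annotated start of the gene in bp (horizontal axis), for the 6 genes. Coloured stems are IDR intervals, grey stems are weaker pooled intervals, shading is the gene up to 4000 bp, and black triangles below the axis are starts of neighbouring protein-coding (down) and noncoding (up) genes within 1000 bp of the strongest summit. Intervals more than 4000 bp past the start are not drawn. The coloured stems reach 75.1 to 191 and the grey stems stay at or below 43.2.

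mdt-26 (WBGene00016115, II:5661181-5665243) encodes a Mediator subunit and had 3 IDR intervals, more than any other protein-coding gene. Of the other genes, 332 had 1 and 15 had 2, so that 0.00501% of all genes tested had 3 or more. The strongest summit, at II:5661786, had a pooled signal value of 191, rank 7. Its signal value was 126 in replicate 5, rank 5, and 70.2 in replicate 6, rank 14. This summit lay 592 bp downstream of the nearer of the gene's 2 annotated starts. It was in an intron, 5 bp past the end of the second coding exon (II:5661710-5661781). It lay there in the pooled and replicate 5 lists, whereas the replicate 6 summit, at II:5661760, lay inside that coding exon. The interval was 272 bp wide.

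The second mdt-26 summit, at II:5661985, lay 791 bp downstream of the start in the same intron, with a pooled signal value of 80.6 and rank 185. It had a signal value of 59.2 in replicate 5, rank 115, and 33.8 in replicate 6, rank 270. Its weakest, at II:5661286, lay 92 bp downstream of the start in the first coding exon (II:5661194-5661313) and had a pooled signal value of 75.1, rank 235. It had 53.1 in replicate 5, rank 187, and 27.0 in replicate 6, rank 688, and was the only IDR interval of the 6 genes outside the 360 best of a replicate. The intervals of the strongest and the second summit overlap. The divergent gene ift-43, which encodes an intraflagellar transport protein, starts 500 bp from the third summit and 1000 bp from the strongest, so these 2 intervals were counted for ift-43 as well. Both summits lay nearer to the start of mdt-26.

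cbp-1 (WBGene00000366, III:9766509-9774825) had 1 IDR interval, with its summit at III:9765590, 919 bp upstream of the nearest start and in intergenic sequence. Its pooled signal value was 136, rank 22. It had 77.4 in replicate 5, rank 38, and 59.9 in replicate 6, rank 24. This was the farthest from its gene's start among the 6. The noncoding RNA genes R10E11.10 and R10E11.12 start nearer to it, at 481 and 585 bp, and no protein-coding gene does. The next protein-coding gene upstream, the divergent gcc-2, lies 4365 bp from cbp-1.

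cbp-1 also held the most pooled intervals outside the IDR list, 11 in number. The strongest of them lay in a coding exon 5264 bp downstream of the nearest start, with a pooled signal value of 43.0 and rank 2302. In replicate 5 it had 24.4, rank 5951, and in replicate 6 it had 15.8, rank 6917. These values were 1.32 and 1.28 times the medians of those lists, against 4.18 and 4.86 times for the upstream peak.

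set-16 (WBGene00011729, III:13643916-13656637) had 1 IDR interval, with its summit at III:13643760, 156 bp upstream of the start in intergenic sequence. Its pooled signal value was 115, rank 50. It had 69.0 in replicate 5, rank 55, and 41.2 in replicate 6, rank 124. The divergent gene drr-2 starts 190 bp from the summit on the other side, and the stretch between the 2 genes is 345 bp long. The summit thus lay nearly midway between them and cannot be assigned to one gene by distance. Of 9 weaker pooled intervals along set-16, the strongest had a signal value of 29.8 and rank 9509.

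set-21 (WBGene00021282, IV:4390844-4393406), another gene of the SET-domain family, had the lowest signal value of the 6 strongest peaks. Its summit, at IV:4390656, lay 188 bp upstream of the start and had a pooled signal value of 87.5, rank 144. It had 52.3 in replicate 5, rank 204, and 31.7 in replicate 6, rank 349, close to the limit of 360. The divergent gene rpl-7A, which encodes a protein of the large ribosomal subunit, starts 66 bp from this summit, nearer than set-21 does. At the other 7 summits no protein-coding start was nearer than that of the gene described. The small nucleolar RNA genes Y24D9A.9 and Y24D9A.10 start 348 and 779 bp away, and the noncoding RNA gene Y24D9A.11 starts at 848 bp. No other pooled interval lay in the set-21 window.

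prmt-5 (WBGene00016408, III:5230555-5234530) had the IDR summit nearest to a start, at III:5230597, inside the first coding exon. It lay 27 bp downstream of the nearer of the gene's 2 annotated starts. Its pooled signal value was 145, rank 18. It had 90.3 in replicate 5, rank 19, and 59.4 in replicate 6, rank 25. No other protein-coding gene starts within 1000 bp of it. The upstream gene atp-2, which encodes the beta subunit of the mitochondrial ATP synthase, lies on the same strand, ends 18 bp before prmt-5 and starts 2180 bp from the summit. The strongest of 3 weaker pooled intervals lay 927 bp upstream of the nearest prmt-5 start, in a coding exon of atp-2, with a signal value of 36.3 and rank 4648. It had 16.2 in replicate 5, rank 21276, and 24.6 in replicate 6, rank 1062, so it ranked very differently in the 2 libraries.

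tasp-1 (WBGene00010480, III:10759307-10763021) had its IDR summit at III:10759257, 50 bp upstream of the start. Its pooled signal value was 184, rank 9. It had 86.8 in replicate 5, rank 23, and 93.0 in replicate 6, rank 3. At 101 bp this was the narrowest interval of the 8. The divergent gene K01G5.10 starts 735 bp from the summit. Of the 2 weaker pooled intervals, one had a signal value of 43.2, rank 2257, in an intron. It lay 651 bp downstream of the nearest of the gene's 3 annotated starts, which is not the start nearest to the IDR summit. The other, with 25.6 and rank 15353, lay 915 bp upstream of the gene, in a coding exon of K01G5.10.

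**Figure D2:**
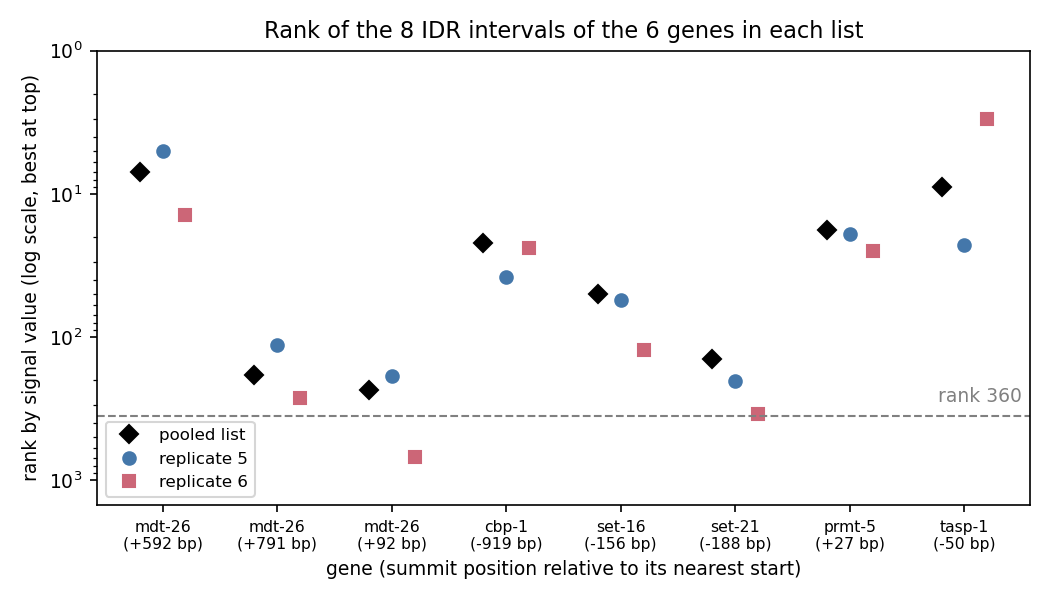
Rank by signal value (vertical axis, log scale, best at the top) of the 8 IDR intervals of the 6 genes in the pooled list, replicate 5 and replicate 6, by gene and summit position relative to the start in bp (horizontal axis). The dashed line marks rank 360, and the mdt-26 interval at +92 bp, with rank 688 in replicate 6, is the one point past it.

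In order of pooled signal value the strongest peaks ran mdt-26, tasp-1, prmt-5, cbp-1, set-16 and set-21. As multiples of the pooled list's median they were 7.41, 7.15, 5.63, 5.29, 4.48 and 3.40. The order was not the same in each library. Replicate 5 placed mdt-26 first at 6.81 times its list's median, then prmt-5 at 4.87, tasp-1 at 4.68 and cbp-1 at 4.18. Replicate 6 placed tasp-1 first at 7.54, then mdt-26 at 5.69, cbp-1 at 4.86 and prmt-5 at 4.82. set-16 came next in both, at 3.73 in replicate 5 and 3.34 in replicate 6, and set-21 last in both, at 2.82 and 2.57. Neighbours among the upper 4 changed places between the libraries, so with 2 replicates their order is not fixed, whereas set-16 and set-21 kept their places.

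tasp-1 differed most between the libraries, with a multiple of the median that was lower in replicate 5 than in replicate 6, by a log2 difference of −0.69 (replicate 5 minus replicate 6). The other 5 genes' strongest intervals lay between −0.22 for cbp-1 and 0.26 for mdt-26. Over the 356 IDR intervals found in both replicate lists, this difference ran from −1.93 to 1.99, with quartiles at −0.40 and 0.51 and a median of 0.02. The strongest intervals of all genes but tasp-1 lay inside those quartiles.

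**Figure D3:**
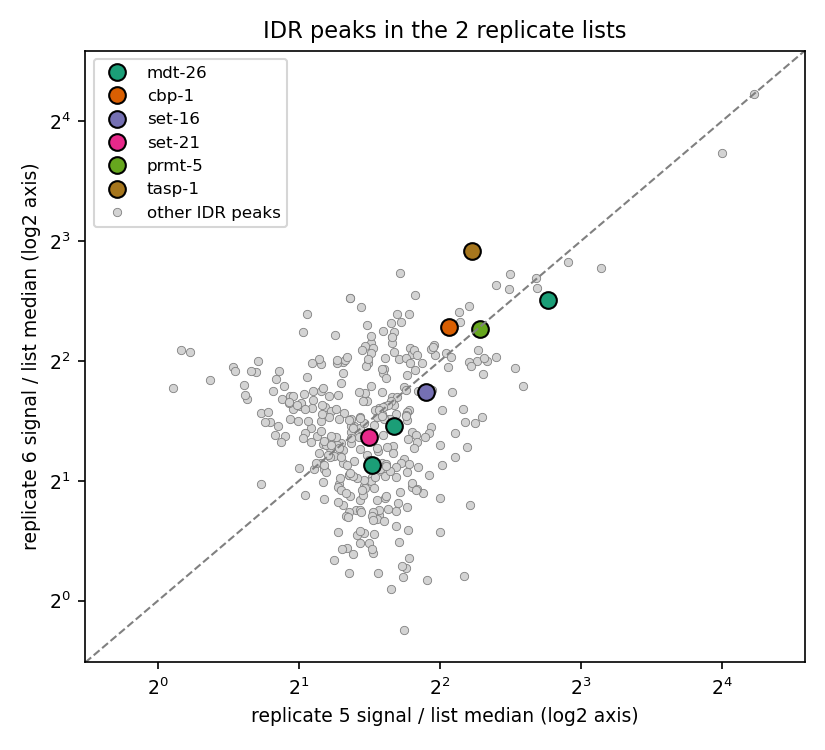
Signal value over the list's median in replicate 6 (vertical axis) against that in replicate 5 (horizontal axis), both on log2 axes, for the 356 IDR intervals found in both lists. Coloured points are the 8 intervals of the 6 genes, grey points the other IDR intervals, and the dashed line marks equal multiples. tasp-1 lies above the line, at 7.54 in replicate 6 and 4.68 in replicate 5, and the other coloured points lie near it.

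In each replicate's own list, all 6 genes had an interval within the 360 strongest. Over all protein-coding genes this held for 1.67% in replicate 5 and 1.71% in replicate 6, and 0.731% had an IDR interval together with intervals among the best of both. By interval, 7 of the 8 were among the 360 best of both replicates, against 144 of all 360 IDR intervals (40%). The pooled list was made from the same 2 libraries, so these counts are not independent of the choice of the genes. Summits of the 8 intervals differed from the replicate 5 summits by 0 to 4 bp and from the replicate 6 summits by 3 to 32 bp. Over all IDR intervals the median difference was 6 bp in replicate 5 and 20 bp in replicate 6.

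Any pooled interval at all was found in the window of 64% of protein-coding genes, so an interval outside the IDR list says little about a gene. The 6 genes held 28 such intervals, with signal values of 19.3 to 43.2 (median 25.4) and ranks from 2257 to 28916. Their q-values ran from 0.148 to 0.898, against 0.00493 to 0.0192 for the 8 IDR intervals. In replicate 5, 15 of the 28 summits lay in an interval, and in replicate 6 it was 13. Both replicates held 7 of them and neither held another 7. With the IDR intervals counted as well, the 6 genes had between 0.281 pooled intervals per kb of window, at set-21, and 1.29, at cbp-1. Over the genome the figure was 0.299 per kb. The genes were chosen for their IDR intervals and the genome figure is not limited to gene windows, so these are unlike measures.

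At the limit of the IDR list, the last 2 intervals inside it had pooled signal values of 66.8 each and lay at R06C1.4 and F53A10.2. The first 2 outside had 66.7, at F28A10.7, and 66.4, at clk-1. The weakest of the 8 intervals, the third of mdt-26 with 75.1, stood above these values.

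All 6 genes lie on the plus strand and 4 of them lie on chromosome III. Among the 348 genes with an IDR interval, 48.0% lie on the plus strand and 20.4% on chromosome III. With 6 genes these are counts only.

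Other genes of the same pathways were taken as 6 lists, of Mediator subunits, histone acetyltransferases, SET-domain proteins, arginine methyltransferases, partners of the COMPASS methyltransferase complex and histone demethylases. Of the 104 genes on these lists, 5 had an IDR interval (4.81%), against 1.74% of all protein-coding genes. These were mdt-26, cbp-1, set-16, set-21 and prmt-5, which were chosen for it, so the share is not evidence about the lists. Outside these 5, no listed gene had an IDR interval or an interval among the 360 best of either replicate. Over all protein-coding genes the shares were 1.74%, 1.67% for replicate 5 and 1.71% for replicate 6. At such shares the absence is no result for lists of this size.

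Mediator had 1 of 28 genes with an IDR interval, mdt-26, which was chosen for it (1.74% of all protein-coding genes had one). The next Mediator gene, mdt-4, reached a pooled signal value of 62.1 and rank 471, with its summit 1314 bp from its nearest start. Among 10 histone acetyltransferase genes, cbp-1 was followed by hat-1, with a signal value of 51.9 and rank 1011. Among 36 SET-domain genes, set-16 and set-21 were followed by set-2, the worm relative of the SET1 methyltransferases, with 59.0 and rank 595. Among 6 arginine methyltransferase genes, prmt-5 stood far from prmt-6, with 31.4 and rank 7994. These 4 followers, and the 2 leaders named next, were picked after their values were seen.

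None of the 10 COMPASS partner genes had an IDR interval, which at 1.74% of all protein-coding genes is no result for a list of this size. Each had a pooled interval, as 64% of all protein-coding genes did, and the best, of the core subunit gene ash-2, had 62.5 and rank 460 at 108 bp from its start. None of the 14 histone demethylase genes had an IDR interval, against the same 1.74%, and the best of them, jmjd-3.1, had 47.9 and rank 1414. Over all 104 listed genes, 81 (77.9%) had some pooled interval, against 64% of all protein-coding genes, with a median best rank of 5404. Over all protein-coding genes with one, the median best rank was 10201. A longer gene has a longer window, and lengths were not matched here.

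**Figure D4:**
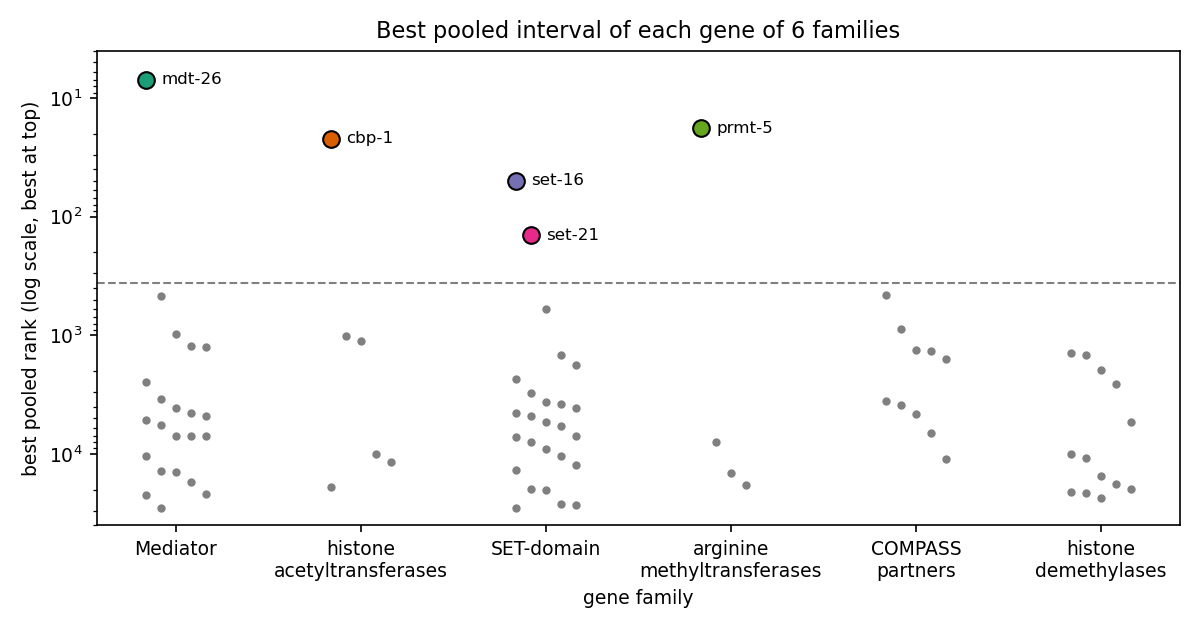
Rank of the best pooled interval of each gene (vertical axis, log scale, best at the top) in 6 gene lists (horizontal axis), with genes that have no pooled interval left out. Large labelled points are genes with an IDR interval and the dashed line marks rank 360. mdt-26, cbp-1, set-16, set-21 and prmt-5 lie above the line, and the nearest points below it are ash-2 at 460 and mdt-4 at 471.

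Among 339 genes with an IDR interval whose best interval had a value in both replicates, the gene most like each of the 6 was taken as the one nearest in signal value over list median, on the log2 scale, across the 2 libraries. Genes whose best interval was the same peak, such as drr-2 for set-16 and rpl-7A for set-21, were passed over. For those members fewer than 339 genes were thus compared. It was F56G4.6 for prmt-5, at a distance of 0.021, F26F12.2 for set-21 at 0.022, and mpk-2 for set-16 at 0.039. It was frm-7 for mdt-26 at 0.125, cutl-18 for cbp-1 at 0.143 and dos-3 for tasp-1 at 0.330. tasp-1 had the least similar match. With 2 libraries, such likeness only says that the peaks have similar heights.

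The 201-bp windows centred on the 8 summits had a GC content of 40.3% to 56.7% (median 50.7%). The median was 43.5% at the other 352 IDR summits and 40.3% at the 29640 pooled summits outside the IDR list. The 2 highest values were 56.7% at set-16 and 56.2% at tasp-1, and the lowest was 40.3% at prmt-5. The ranges overlap widely, since the other IDR windows ran from 22.9% to 67.2%.

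Motifs were searched on both strands in the same windows, and a match is a description of the letters only. GAGAGA was present in 4 of the 8 windows, those of the strongest mdt-26 interval, cbp-1, set-16 and tasp-1, against 19.0% of other IDR windows and 13.9% of pooled windows outside the list. TTTGAA was present in 3, at the second and the third mdt-26 intervals and at set-21, against 35.8% and 36.8%. TTTCAG was present in 2, at the third mdt-26 interval and at prmt-5, where it lies outside the stretch printed, against 22.7% and 31.3%. TGACGT was present in 1, against 5.11% and 7.38%, and GTTCGA in 1, against 16.8% and 8.46%, both at the second mdt-26 interval. CACGTG (7.95% and 4.89%), GGCGGG (9.38% and 4.86%) and TATAAA (20.2% and 15.1%) were in none of the 8. No motif was common to all 6 genes.

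Runs of 8 bases shared by 3 of the 6 genes were then listed, a search chosen after the windows had been seen. There were 3 of them, none in more than 3 genes. ATCTCGCG was present at cbp-1, set-16 and the second mdt-26 interval, in no other IDR window of 352 and in 0.213% of pooled windows outside the list. CGAGACAC was present at cbp-1, at the second mdt-26 interval and at tasp-1, where it lies past the end of the stretch printed, against 0.852% and 0.401%. GTGCGGCA was present at set-16, set-21 and tasp-1, against 1.99% and 0.563%. The complement of the first run shares the letters CGAGA with the second, and no searched motif contains another. At cbp-1 and mdt-26 the first and the second of these runs occur in the same window. The runs were picked because the genes share them, so their counts at the 6 genes carry no weight beside the shares elsewhere, and prmt-5 holds none of the 3.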

How the data were processed

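Peak lists from ChIP-seq of tagged F57C9.4 in whole worms were used, for biological replicates 5 and 6 per the labels, 1 library each. The lists before IDR were made by the authors per replicate and on both replicates pooled, on builds ce10 and ce11 per the labels. Not given in the sources used here are the aligner and peak caller. Each list before IDR came from alignments and 1 further file of unstated kind. The deposited signal value is the authors' own and was used to rank intervals within a list. The deposited −log10 q-value was used for description. The deposited lists give the summit offset, another value, from which summit positions were computed. Lists before IDR hold 30000 intervals each, and pooled q-values reach 0.906. IDR intervals had a median width of 404 bp, which limits resolution.

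Genes came from Ensembl release 115 (WBcel235, the assembly of ce11), without 12 mitochondrial protein-coding genes. A summit was credited within 1000 bp of a transcript start or inside the gene. A summit was looked up in a replicate as the best interval holding it. The genes, the gene lists and the motifs were chosen with earlier results of these data known. Named genes were the 6, genes with a nearer start, listed genes with an IDR interval, the most alike gene, and those at the limit of the IDR list. Other neighbours were named after their positions were seen. The counting was tested on simulated intervals. Python 3.11.15, pandas 2.3.3 and numpy 2.4.6 were used. Read counts were not analysed here, so no counting error can be given, and no test was run, since the genes were chosen on these lists. The alternatives were other windows, stricter and replicate lists, the ce10 list, an overlap rule and other flanks.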

Additional observations from a re-analysis of the deposited data

How the results depend on the processing

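Of 80 alternative values, 71 stayed close to those reported, 9 moved and 0 turned direction. Some of these settings could not lower a count, so the tally does not measure robustness. All 6 genes kept an IDR interval with a window of 2000 bp (2.52% of all genes), with starts only (1.37%), with the stronger 180 intervals (0.841%) and when any base of an interval counted (2.21%). The wider window and the any-base rule could not lose a gene. The starts-only and stronger-180 outcomes follow from the distances and ranks given above. With a window of 500 bp, 5 did (1.43%) and cbp-1 did not, which also left the histone acetyltransferases with 0. When only the nearest protein-coding start counted, 5 did (1.26%), and set-21 gave way to rpl-7A. Leaving out a replicate meant using the best intervals of the other replicate's own list, since no IDR list was made anew. All 6 genes had such an interval without replicate 5 (1.71% of all genes) and without replicate 6 (1.67%). These repeat the counts given above for the single replicates and are no further check. On ce10, 5 genes had an interval of the same chromosome with a signal value within 0.1% (1.7% of all genes), and set-16 had 2 such intervals, so its match was not unique. For cbp-1 the closest signal value there was 135.0, rank 24, which differs by 0.951%, and coordinates were not converted. By overlap of at least 1 base, the second mdt-26 interval took rank 5 in replicate 5 in place of 115, because it overlaps the strongest one. Motif counts varied with the flank, here with the share of other IDR windows in brackets. At 50 bp TGACGT fell to 0 (2.56%), TTTGAA to 1 (18.5%) and GAGAGA to 2 (12.5%). At 200 bp TTTGAA reached 6 (62.5%), GAGAGA 5 (31.0%), TTTCAG 5 (44.6%), GTTCGA 3 (24.7%) and TATAAA 2 (38.4%). No paired analysis was possible because the study has 1 group. With 2 libraries of unknown depth, small differences in rank cannot be read as differences in binding.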

Other observations

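The window at the second mdt-26 summit, II:5661985, held an inverted repeat with arms of 12 bases that read GTGTCTCGTTGC, separated by 44 bases, a search added after the window had been seen. Arms of at least that length occurred at 1.70% of the other 352 IDR summits and at 2.02% of 1482 pooled summits outside the list. The other 7 windows had arms of 6 to 9 bases.

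Over the pooled intervals of the 6 genes the q-value rose broadly with the rank by signal value, from 0.00493 at rank 7 to 0.898 at rank 28916. It did not follow the rank at every step. The second and the third mdt-26 intervals, at ranks 185 and 235, had q-values of 0.0190 and 0.0192, and set-21, at rank 144, had 0.0174. The interval at F28A10.7, at rank 361 just outside the IDR list, had 0.0125.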
